A study of Mus musculus with 8 samples.

Results

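The 8 genes described here encode the receptor system of calcitonin gene-related peptide (CGRP) and adrenomedullin: the receptor Calcrl, its partner proteins Ramp1, Ramp2 and Ramp3, and the ligands Adm, Adm2, Calca and Calcb. They were found by gene symbol in a table of 23336 genes, and all 8 had a row. The family was chosen by the result for Calcrl in the comparison of the same ΔDMR1-U2 and wild-type libraries, where Calcrl ranked 2 by p among 15241 tested genes, so the differences between these groups are given for the 8 genes as a description, without a test.

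Total RNA was sequenced from skeletal muscle of 4 ΔDMR1-U2 mice, called KO below, and 4 wild-type mice, called WT. All were labelled female, of the C57BL/6 strain, at postnatal day 2. ΔDMR1-U2 is a deletion at Igf2, the imprinted growth factor gene, in a study of the antisense gene Igf2as. The parent that passed on the deletion, its zygosity and the number of litters are not stated in the labels. The p-values below therefore set the group difference against the spread between these samples only, and may not hold for other litters. Libraries are named 1A, 1B, 2 and 3 in each group, and the labels do not say how 1A and 1B are related.

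CGRP and adrenomedullin are small secreted peptides that widen blood vessels. Their receptor, calcitonin receptor-like receptor, is a G protein-coupled receptor of class B that reaches the cell surface only together with a receptor activity modifying protein (RAMP), and the RAMP sets which peptide is bound best. With Ramp1 it forms the CGRP receptor, and with Ramp2 or Ramp3 it forms adrenomedullin receptors. In many tissues Calcrl and Ramp2 are expressed in the endothelium of blood and lymph vessels, and in muscle CGRP is released by sensory and motor nerve endings. The activated receptor raises cyclic AMP through the stimulatory G protein.

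The promoter of Calcrl is shown because Calcrl is the gene with the clearest difference between the groups. That of Calca is shown because Calca had the highest coefficient of variation in each group among the 6 tested genes. Both come from RefSeq on GRCm38.p6, written 5′ to 3′ on the strand of the gene over 300 bases around the RefSeq start, and 6 of the 8 genes had an entry.
Calcrl, chr2:84425217-84425516, minus strand: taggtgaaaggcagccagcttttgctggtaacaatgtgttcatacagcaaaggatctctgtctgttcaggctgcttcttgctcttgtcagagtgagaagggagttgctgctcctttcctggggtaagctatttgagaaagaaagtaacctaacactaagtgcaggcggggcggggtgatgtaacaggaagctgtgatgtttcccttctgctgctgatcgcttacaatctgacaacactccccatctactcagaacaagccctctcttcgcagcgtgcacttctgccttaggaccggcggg
Calca, chr7:114636308-114636607, minus strand: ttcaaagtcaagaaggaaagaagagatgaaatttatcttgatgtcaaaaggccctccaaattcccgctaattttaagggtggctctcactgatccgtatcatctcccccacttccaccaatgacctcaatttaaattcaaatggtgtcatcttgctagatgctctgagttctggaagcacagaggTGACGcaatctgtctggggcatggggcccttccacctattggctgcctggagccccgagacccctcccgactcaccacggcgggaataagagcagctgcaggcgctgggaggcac
Capitals mark the core of the cyclic AMP response element, TGACG, searched on both strands, which 20.8% of 32851 promoters of this length held. The Calca window held 1 copy and the Calcrl window held 0. The full palindrome of that element and the ACGTG form of the hypoxia response core were also searched on both strands. Each was found 0 times in these windows, while 1.79% and 19.6% of all promoters held them. The GCGTG form of the hypoxia response core, which the Calcrl window contains, was not part of the search. The full palindrome contains the core TGACG.

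Library totals were 16781493 to 20060129 counts in KO and 16084413 to 26913636 counts in WT. Igf2as, the gene at the deletion, was at 5.55 to 6.18 CPM (counts scaled to library size with TMM factors) in KO and 54.4 to 72.2 CPM in WT. Igf2 itself was at 5128 ± 381 CPM in KO and 4948 ± 289 CPM in WT (SD, n = 4 each). KO library 1A is labelled female but had 2.50 CPM of Xist, against 1270 to 1895 CPM in the other 7 libraries. KO library 1B lay at -41.7 on the first principal component, which held 38% of the variance, and the other 7 lay between -16.9 and 23.9. The summed level of 8 muscle fibre markers was 167232 to 188930 CPM in KO and 182451 to 216062 CPM in WT.

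Calcrl, the receptor, was higher in KO muscle. It had 132, 149, 145 and 151 CPM in KO libraries 1A, 1B, 2 and 3, against 93.7, 94.7, 98.4 and 90.7 CPM in the WT libraries of the same names. Every KO library lay above every WT library, and the gap between the groups was wider than the range within either. The means were 144 ± 8.47 CPM in KO and 94.4 ± 3.2 CPM in WT (SD, n = 4 each), a 1.53-fold difference and a log2 fold change of 0.61 (SE 0.06). The values rest on 2422 to 3068 counts per KO library and 1444 to 2632 per WT library. The log2 fold change was 0.65 without KO library 1A, 0.60 without 1B and 0.65 without both. In the authors' deposited table the WT to KO fold of Calcrl is 0.655.

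Of the 8 genes, 6 passed the filter on low counts, and of these only Calcrl had an adjusted p under 0.05 in the fit over all genes, where 1.13% of the 15241 genes did, 0.512% higher and 0.617% lower (DESeq2 called 6.15% of 15133 genes). Because the family was picked from this contrast, that count is not evidence about the family. The groups did not overlap in Calcrl and Calca, with KO higher in both, while 12.8% of all tested genes had groups that did not overlap and 6.40% had KO higher. Calca passed the filter with 4 KO and 3 WT libraries at or above 0.512 CPM, and Ramp3 with 4 and 2, so both passed chiefly through the group in which they were higher. Adm2 and Calcb stayed below the filter.

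**Figure D1:**
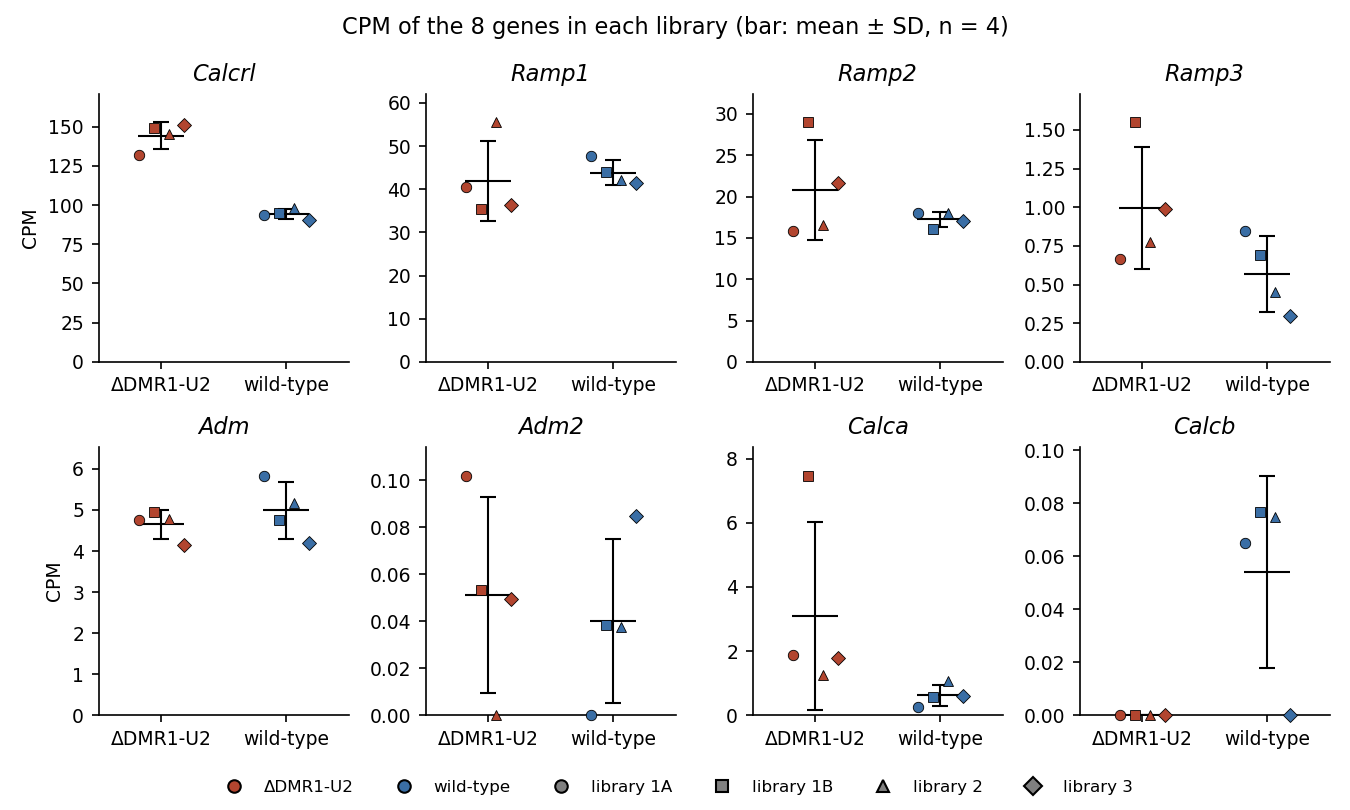
CPM of each of the 8 genes (vertical axes, linear from 0) in the 4 KO and 4 WT libraries, with 1 symbol per library and bars for the mean ± SD. Calcrl separates the groups with little spread, at 132 to 151 CPM in KO and 90.7 to 98.4 CPM in WT, and KO library 1B is the highest library for Ramp2, Ramp3 and Calca.

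Calcrl lies on chromosome 2 of the mm10 assembly from 84330626 to 84425411 on the minus strand (GENCODE vM21), and no other annotated gene overlaps it. Its nearest protein-coding neighbour in the table is Tfpi, tissue factor pathway inhibitor, an anticoagulant protein made by endothelium, whose 3′ end lies 7444 bases away on the same strand. Tfpi was at 28.6 ± 2.52 CPM in KO and 26.3 ± 1.59 CPM in WT (SD, n = 4 each), with a log2 fold change of 0.13 (SE 0.08, edgeR adjusted p = 0.407), and was not called. Zswim2, the neighbour on the other side, had 0 to 2 counts per library.

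In the 3 RAMPs the values of the groups overlapped. Ramp1, the partner for CGRP, had 40.4, 35.5, 55.5 and 36.3 CPM in KO libraries 1A, 1B, 2 and 3, against 47.8, 43.9, 42.1 and 41.4 CPM in WT libraries 1A, 1B, 2 and 3. The groups overlapped: KO library 2 lay above all others, while the other 3 KO libraries lay below every WT library. The log2 fold change was -0.06 (SE 0.13), -0.23 without KO library 2, 0.01 without 1B and 0.06 without 1A and 1B. The coefficient of variation was 22.2% in KO, 7.08% in KO without library 2, and 6.53% in WT.

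Ramp2, the partner for adrenomedullin, had 15.9, 29.0, 16.6 and 21.7 CPM in KO libraries 1A, 1B, 2 and 3, against 18, 16.1, 18 and 17.0 CPM in WT libraries 1A, 1B, 2 and 3. Libraries 1B and 3 of KO lay above all WT libraries, library 2 lay within their range and 1A just below it. Its log2 fold change was 0.27 (SE 0.17), and 0.07 without KO library 1B. An exon of Ramp2 overlaps one of Vps25, a gene of endosomal sorting, on the same strand, and the labels do not say how shared reads were counted. Vps25 was at 19.0 ± 0.609 CPM in KO and 18.7 ± 0.502 CPM in WT (SD, n = 4 each).

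Ramp3, the second partner for adrenomedullin, was rare. Its counts were 13, 29, 13 and 20 in KO libraries 1A, 1B, 2 and 3, against 13, 18, 12 and 7 in WT libraries 1A, 1B, 2 and 3. On the scaled library size this was 0.993 ± 0.393 CPM in KO and 0.570 ± 0.244 CPM in WT (SD, n = 4 each), with overlapping groups. The log2 fold change was 0.85 (SE 0.36), and 0.56 without KO library 1B. At this depth counting alone gives a coefficient of variation of about 25.3%. Ramp3 also overlaps the pseudogene Gm11978 on the opposite strand, which had 0 or 1 count per library.

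Set against each other per kilobase of annotated exon, Ramp1 was the most abundant RAMP in all 8 libraries. Its share of the summed per-length RAMP level was 71.6, 54.3, 76.7 and 62.3% in KO libraries 1A, 1B, 2 and 3, and 72.2, 72.9, 70.7 and 71.9% in WT libraries 1A, 1B, 2 and 3. The makeup was nearly constant in WT and ran to both sides of it in KO. Ramp2 held 30.4% ± 8.68 in KO and 26.0% ± 1.52 in WT, and Ramp3 held 3.45% ± 1.30 in KO and 2.02% ± 0.766 in WT (SD, n = 4 each). With the longest transcript as the length, the Ramp2 share was 42.7% ± 10.2 in KO and 37.8% ± 1.81 in WT, and Ramp2 then exceeded Ramp1 in KO library 1B, where its share was 54.4%.

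The per-length ratio of Calcrl to the 3 RAMPs together was 1.45, 1.41, 1.24 and 1.61 in KO libraries 1A, 1B, 2 and 3, and 0.877, 0.973, 1.02 and 0.975 in WT libraries 1A, 1B, 2 and 3. The groups did not overlap, with means of 1.42 ± 0.153 in KO and 0.962 ± 0.0611 in WT (SD, n = 4 each). With the longest transcript as the length the ratios were lower, at 0.905 ± 0.0816 in KO and 0.626 ± 0.0358 in WT, so whether receptor or RAMP transcripts were in excess depends on the length used, and the order of the groups does not. Since Calcrl enters the ratio, this is the same difference seen on another scale. Calcrl to Ramp1 alone was at 2.2 ± 0.475 in KO and 1.34 ± 0.0957 in WT, without overlap, while Calcrl to Ramp2 was at 4.92 ± 1.09 in KO and 3.70 ± 0.194 in WT and overlapped through KO library 1B.

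**Figure D2:**
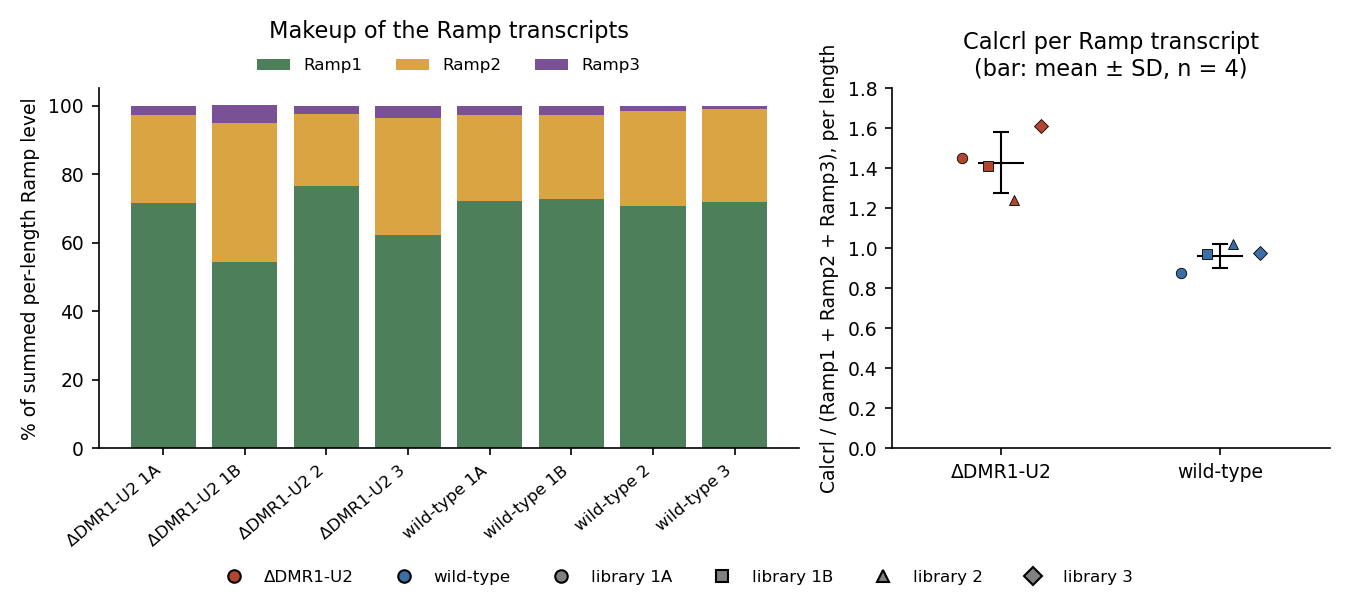
Left, share of Ramp1, Ramp2 and Ramp3 (vertical axis, % of their summed CPM per kilobase of exon) in each library; right, per-length ratio of Calcrl to the summed RAMPs by library, with the mean ± SD of 4 libraries per group. Ramp1 takes 70.7 to 72.9% in all WT libraries but 54.3 to 76.7% in KO, and the ratio is 1.24 to 1.61 in KO and 0.877 to 1.02 in WT.

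Among the ligands, Adm, which encodes adrenomedullin, showed no separation of the groups. It had 4.75, 4.96, 4.77 and 4.14 CPM in KO libraries 1A, 1B, 2 and 3, against 5.84, 4.75, 5.16 and 4.2 CPM in WT libraries 1A, 1B, 2 and 3. The ranges overlapped and the log2 fold change was -0.09 (SE 0.13), between -0.17 and -0.02 when 1 library was left out. Adm2, which encodes the related peptide intermedin, had 0 to 2 counts in every library, at or under the limit of 3 counts that a count of 0 allows.

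Calca encodes calcitonin and, through another splice form, alpha-CGRP, and a count per gene does not separate these products. It had 37, 140, 21 and 36 counts in KO libraries 1A, 1B, 2 and 3, against 4, 15, 28 and 14 counts in WT libraries 1A, 1B, 2 and 3, which is 1.89, 7.47, 1.25 and 1.78 CPM in KO and 0.260, 0.574, 1.05 and 0.595 CPM in WT. Library 1B of KO stood far above the rest, and the other 3 KO libraries still lay above every WT library, by a narrow margin for library 2. The means were 3.10 ± 2.93 CPM in KO and 0.619 ± 0.324 CPM in WT (SD, n = 4 each), and 1.64 ± 0.340 CPM in KO without library 1B (SD, n = 3). The log2 fold change of 2.24 (SE 0.59) was 1.33 without KO library 1B and 1.22 without 1A and 1B.

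Calcb, which encodes beta-CGRP, had 0 counts in all 4 KO libraries and 1, 2, 2 and 0 counts in WT libraries 1A, 1B, 2 and 3. A count of 0 allows up to 3 counts per library, or 0.148 to 0.179 CPM in KO and 0.112 to 0.195 CPM in WT, so no difference was detectable at this depth. These floors cover counting error only. Calcb lies near Calca, from 114718643 to 114723365 on chromosome 7 against 114631478 to 114636357 for Calca, and Adm lies on the same chromosome from 110627661 to 110629820.

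On the per-length scale the 8 transcripts ranked as Calcrl, Ramp1, Ramp2, Adm, Calca, Ramp3, Adm2 and Calcb, by the mean over all 8 libraries, and the longest transcript in place of all exons gave the same order. Calca and Ramp3 changed places between the groups, with Calca at 1.84 and Ramp3 at 0.720 CPM per kilobase on average in KO, where Calca rests on library 1B, and Calca at 0.367 and Ramp3 at 0.413 in WT. Calcrl ran from 27.1 to 31.0 CPM per kilobase in KO and from 18.6 to 20.2 in WT. Ramp1 ran from 11.7 to 18.4 in KO and from 13.7 to 15.8 in WT, Ramp2 from 4.83 to 8.78 in KO and from 4.89 to 5.46 in WT, and Adm from 2.56 to 3.06 in KO and from 2.60 to 3.61 in WT. With all annotated exons as the length, Calcrl, Ramp1, Ramp2 and Adm did not overlap in level over the 8 libraries. Adm and Calca overlapped through KO library 1B, where Calca reached 4.44 CPM per kilobase, and the ranges of Calca and Ramp3 overlapped, with Calca above Ramp3 in 6 of 8 libraries. Adm2 and Calcb were not told apart. With the longest transcript as the length, the first 3 did overlap, since Ramp1 exceeded Calcrl in WT library 1A and Ramp2 exceeded Ramp1 in KO library 1B.

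**Figure D3:**
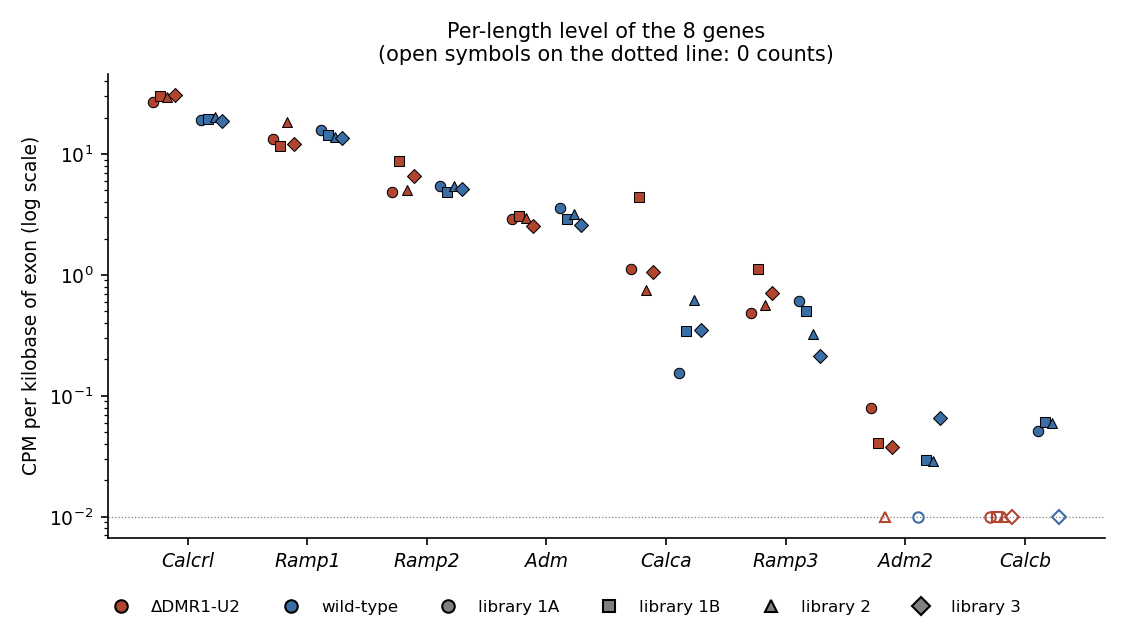
CPM per kilobase of annotated exon (vertical axis, log scale) of the 8 genes in order of their mean, with 1 symbol per library, KO left of WT and open symbols on the dotted line for 0 counts. The receptor and Ramp1 lead in both groups, the ligand Adm follows Ramp2, and Adm2 and Calcb lie at the limit of detection.

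Markers of blood endothelium, a known site of Calcrl expression, were not called as changed in edgeR. All 20 were tested and 0 were called in edgeR (1 in DESeq2; 5 had an unadjusted p under 0.05 in edgeR, and 21.3% of all tested genes did), with a median log2 fold change of 0.08, against a median of 0 for all tested genes. Their summed level was 1159 to 1278 CPM in KO and 1134 to 1256 CPM in WT. The most abundant by the mean over all libraries were Cd34, a surface protein of endothelium and progenitors, and Cdh5, the endothelial cadherin. Cd34 was at 182 ± 14.3 CPM in KO and 186 ± 10.6 CPM in WT, and Cdh5 at 141 ± 9.47 CPM in KO and 171 ± 6.84 CPM in WT (SD, n = 4 each). Cdh5 had a log2 fold change of -0.28 (adjusted p = 0.0644, edgeR), opposite in sign to Calcrl, and did not pass the threshold in edgeR. It was the marker called in DESeq2, and its groups did not overlap, at 127 to 148 CPM in KO and 162 to 179 CPM in WT. In bulk tissue fewer cells of a type and less RNA per cell cannot be told apart.

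Library by library, the mean log2 CPM of the 20 markers lay 0.00, 0.10, -0.03 and 0.10 from the WT mean in KO libraries 1A, 1B, 2 and 3, and -0.02, -0.13, 0.09 and 0.07 from it in WT libraries 1A, 1B, 2 and 3. On the same scale Calcrl lay 0.49, 0.65, 0.62 and 0.68 from its WT mean in KO, and within 0.06 of it in WT. Relative to these markers Calcrl was at 1.82 ± 0.07 in KO and 1.25 ± 0.11 in WT on the log2 scale (SD, n = 4 each), without overlap, a difference of 0.57 against 0.61 for Calcrl alone. The marker mean differed by 0.04, so this is the difference that chose the family, seen on another scale. Ramp2 relative to the same markers was at -1.01 ± 0.34 in KO and -1.19 ± 0.08 in WT, with overlapping groups.

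**Figure D4:**
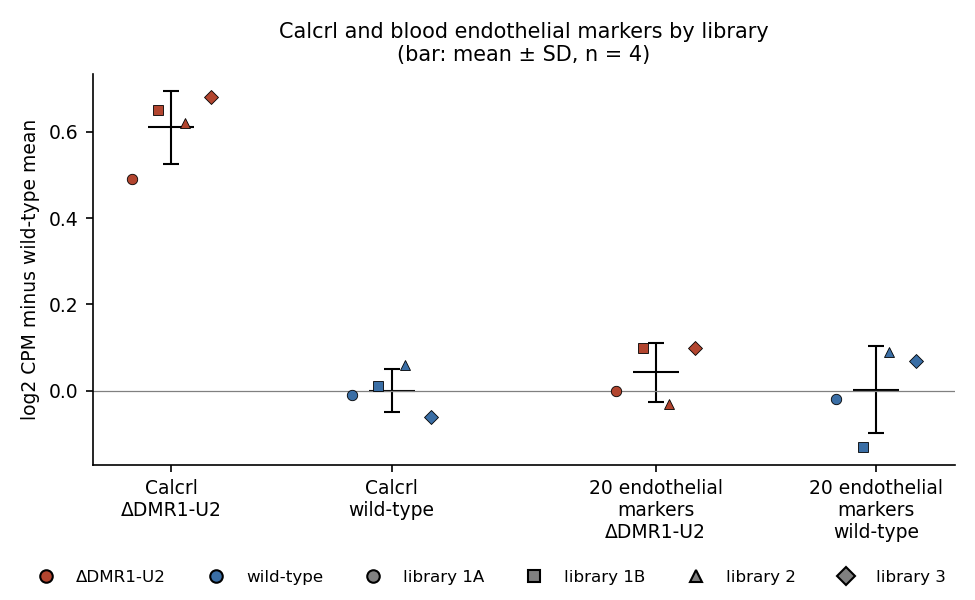
Log2 CPM minus the WT mean (vertical axis) for Calcrl and for the mean of 20 blood endothelial markers in each library, with bars for the mean ± SD of 4 libraries. Calcrl lies 0.49 to 0.68 above its WT mean in KO, while the endothelial mean stays between -0.13 and 0.10 in all 8 libraries.

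Of 6 tested lymphatic endothelial markers, 1 was called, against 1.13% of all tested genes, namely Reln, reelin, a secreted matrix protein also made by other cells, at 71.2 ± 5.44 CPM in KO and 53.8 ± 4.60 CPM in WT (SD, n = 4 each). It rose by 0.40 on the log2 scale (SE 0.08, edgeR adjusted p = 0.0446), and kept its call in 1 of the 8 fits that left out 1 library, the fit without KO library 2. The listed markers Prox1 and Lyve1 had log2 fold changes of 0.11 and 0.10 and were not called, and Ccl21a was at 0. Mmrn1, also on the list, was at 10.4, 11.6, 7.82 and 0.0493 CPM in KO libraries 1A, 1B, 2 and 3. In WT libraries 1A, 1B, 2 and 3 Mmrn1 was at 4.02, 3.71, 6.02 and 5.86 CPM. The summed level of the list was 188 to 215 CPM in KO and 177 to 185 CPM in WT, without overlap, and without Reln it was 121 to 143 CPM in KO and 120 to 131 CPM in WT, with overlap. Its part in the level of Calcrl was not tested. Of 10 mural cell markers 0 were called in edgeR and 1 in DESeq2 (2 had an unadjusted p under 0.05), with Acta2, smooth muscle actin, at -0.37 and Abcc9, a pericyte potassium channel subunit, at -0.20, while Pdgfrb, a receptor of pericytes, was at 0.21 and Myh11, smooth muscle myosin, at 0.33, with a list median of -0.02. The summed mural level was 1039 to 1279 CPM in KO and 1128 to 1241 CPM in WT.

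Nerve and Schwann cell markers were given beside Calca because nerve endings are a known source of the CGRP peptide. The counts here are of RNA, and which cells held the Calca transcript was not tested. Of 10 tested markers 0 were called in edgeR and 2 in DESeq2 (5 had an unadjusted p under 0.05), with a median log2 fold change of 0.49 and 8 of 10 positive. The median was 0.32 without KO 1A, 0.33 without KO 3 and 0.28 without WT 3. In edgeR 1 marker was called with total counts as the scaling, with no filter, or without KO 2. The summed level of the 14 markers in the table was 198, 153, 154 and 240 CPM in KO libraries 1A, 1B, 2 and 3 and 136, 146, 132 and 79.6 CPM in WT libraries 1A, 1B, 2 and 3, higher in every KO library. Prx, periaxin, a protein of myelinating Schwann cells, was at 45.6 ± 12.3 CPM in KO and 32.9 ± 5.85 CPM in WT (SD, n = 4 each). Of the neuronal genes, the neurofilament genes Nefl and Nefm and peripherin, Prph, had log2 fold changes of -0.07, 0.50 and -0.50 and were not called. Chat, which marks motor neurons, was at 0, and Trpv1, Scn10a and Tac1, genes of sensory neurons, averaged at most 0.248 CPM in KO and 0.301 CPM in WT and were below the filter. KO library 1B, which had the most Calca, was at 153 CPM of these markers, next to 154 CPM in library 2 and below the other KO libraries. The part of nerve content in the level of Calca was not tested.

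The same library stood out in adipocyte markers, whose summed level was 51.5, 197, 52.0 and 68.3 CPM in KO libraries 1A, 1B, 2 and 3 and 39.8 to 76.4 CPM in WT. Of 6 tested adipocyte markers 1 was called, against 1.13% of all tested genes, namely Cidea, a lipid droplet protein of brown fat, at 22 ± 6.79 CPM in KO and 10.5 ± 0.541 CPM in WT (SD, n = 4 each; log2 fold change 1.07, SE 0.18, adjusted p = 0.0301, edgeR). Its call was kept in 3 of the 8 fits that left out 1 library, those without KO 1A, 1B or 2, with a log2 fold change of 0.86 without 1B. The list median of 0.75 was -0.24 without KO library 1B. This library was also the highest for Ramp2, Ramp3 and Calca, and the part of adipose tissue in those values was not tested. Macrophage markers had 0 of 8 called in edgeR and 0 in DESeq2. Of the 8, 3 (37.5%) had an unadjusted p under 0.05 in edgeR, against 21.3% of all tested genes. Log2 fold changes were negative in 7 and positive in 1, with Mrc1 at -0.10 and Csf1r at -0.25. The lowest was Aif1 at -0.76 (adjusted p = 0.122, edgeR), whose groups did not overlap, as in 12.8% of all tested genes. The summed level was 271 to 310 CPM in KO and 300 to 379 CPM in WT. The 8 muscle fibre markers had log2 fold changes of -0.34 to -0.14, among them Ttn at -0.15 and Myh8 at -0.14. In edgeR 0 were called, and in DESeq2 1 was, where 6.15% of all genes were called. Of the 8, 2 (25.0%) had an unadjusted p under 0.05 in edgeR, against 21.3% of all tested genes.

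Around the receptor, 80 tested genes of 6 pathway lists were examined. In edgeR 1 rose and 0 fell, which is 1.25% of them and close to the 1.13% of all tested genes. DESeq2 called 6 of them, where 6.15% of 15133 genes were called. Their median log2 fold change was 0.01. The gene that rose in edgeR was Lnpep, an aminopeptidase that travels with insulin-regulated vesicles and cleaves small peptides such as oxytocin and vasopressin. It was at 301 ± 13.7 CPM in KO and 238 ± 11.2 CPM in WT (SD, n = 4 each). Its log2 fold change was 0.34 (SE 0.06, edgeR adjusted p = 0.0379), and every KO library lay above every WT library. Lnpep kept its call in 1 of the 8 fits that left out 1 library, the fit without KO library 2.

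DESeq2 called 2 of 6 tested genes of peptide clearance and binding, Ide and Lnpep, where 6.15% of all genes were called. In edgeR the genes of that list other than Lnpep were not called. Among them, Mme, neprilysin, which degrades CGRP and adrenomedullin, had a log2 fold change of 0.21, Ece1, endothelin converting enzyme, 0.13, Ide, insulin-degrading enzyme, -0.20, and Cxcr7, the scavenging receptor now named Ackr3 that also takes up adrenomedullin, -0.03. Of 6 tested genes of peptide processing 0 were called in edgeR and 0 in DESeq2. Of the 6, 1 (16.7%) had an unadjusted p under 0.05 in edgeR, against 21.3% of all tested genes. Pam, the enzyme that amidates CGRP and adrenomedullin at their end, was at 140 ± 9.67 CPM in KO and 141 ± 17.2 CPM in WT, and Cpd, a carboxypeptidase of the secretory pathway, was at 241 ± 10.4 CPM in KO and 214 ± 6.02 CPM in WT (SD, n = 4 each, adjusted p = 0.137, edgeR).

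Of 10 tested genes among the class B receptors and related proteins 0 were called in edgeR and 0 in DESeq2. Of the 10, 3 (30.0%) had an unadjusted p under 0.05 in edgeR, against 21.3% of all tested genes. Calcr, the calcitonin receptor and the closest relative of Calcrl, was at 4.53 ± 0.533 CPM in KO and 5.46 ± 0.798 CPM in WT, with a log2 fold change of -0.26. Crcp, a receptor component protein that couples Calcrl to its G protein, was at 9.02 ± 1.18 CPM in KO and 10.9 ± 0.802 CPM in WT, with a log2 fold change of -0.28 (SD, n = 4 each). The most abundant receptors of the list were Adcyap1r1, the receptor of the peptide PACAP, and Pth1r, the parathyroid hormone receptor, with log2 fold changes of -0.01 and -0.02. Gpr182, an endothelial receptor once proposed to bind adrenomedullin, had 0.82 (SE 0.32) and was not called. Iapp and Crhr1 were at 0 counts in every library.

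Downstream, 25 genes of cyclic AMP signalling were tested and 0 were called in edgeR and 1 in DESeq2 (5 had an unadjusted p under 0.05). Gnas, the stimulatory G protein that Calcrl couples to, was at 1656 ± 58.5 CPM in KO and 1685 ± 89.1 CPM in WT, and Prkaca, the catalytic subunit of protein kinase A, was at 528 ± 52.3 CPM in KO and 625 ± 34.7 CPM in WT (SD, n = 4 each, log2 fold change -0.24, adjusted p = 0.139, edgeR). Of 12 genes of receptor trafficking 0 were called in edgeR or DESeq2 and 0 had an unadjusted p under 0.05 in edgeR, with Snx27 at 0.02 and Rab11a at 0.08.

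Adm is a known target of the hypoxia response, so genes of that response were set beside it. Of 21 tested genes 0 were called in edgeR and 3 in DESeq2, where 6.15% of all genes were (9, or 42.9%, had an unadjusted p under 0.05 in edgeR, against 21.3% of all tested genes), with a median log2 fold change of -0.07 and values from -0.32 to 1.13. Ldha and Pgk1, the most abundant, had -0.32 and -0.17, while Vegfa, the vascular growth factor, had -0.17. The 3 genes called in DESeq2 were Bnip3, Ndrg1 and Ldha. Bnip3, at 1.00, and Hif3a, at 1.13, were the members with the highest values, chosen after these were seen. Neither was called in edgeR (adjusted p = 0.0680 and 0.0983, edgeR). Both were highest in KO library 1B, and without it Bnip3 was at 0.62 (adjusted p = 0.0180, edgeR) and Hif3a at 0.68 (adjusted p = 0.137, edgeR). Over the 8 fits that left out 1 library, Bnip3 had adjusted p from 0.0180 to 0.185 and Hif3a from 0.0337 to 0.223 in edgeR. Bnip3 was under 0.05 without KO 1B and without KO 2, and Hif3a without KO 2.

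**Figure D5:**
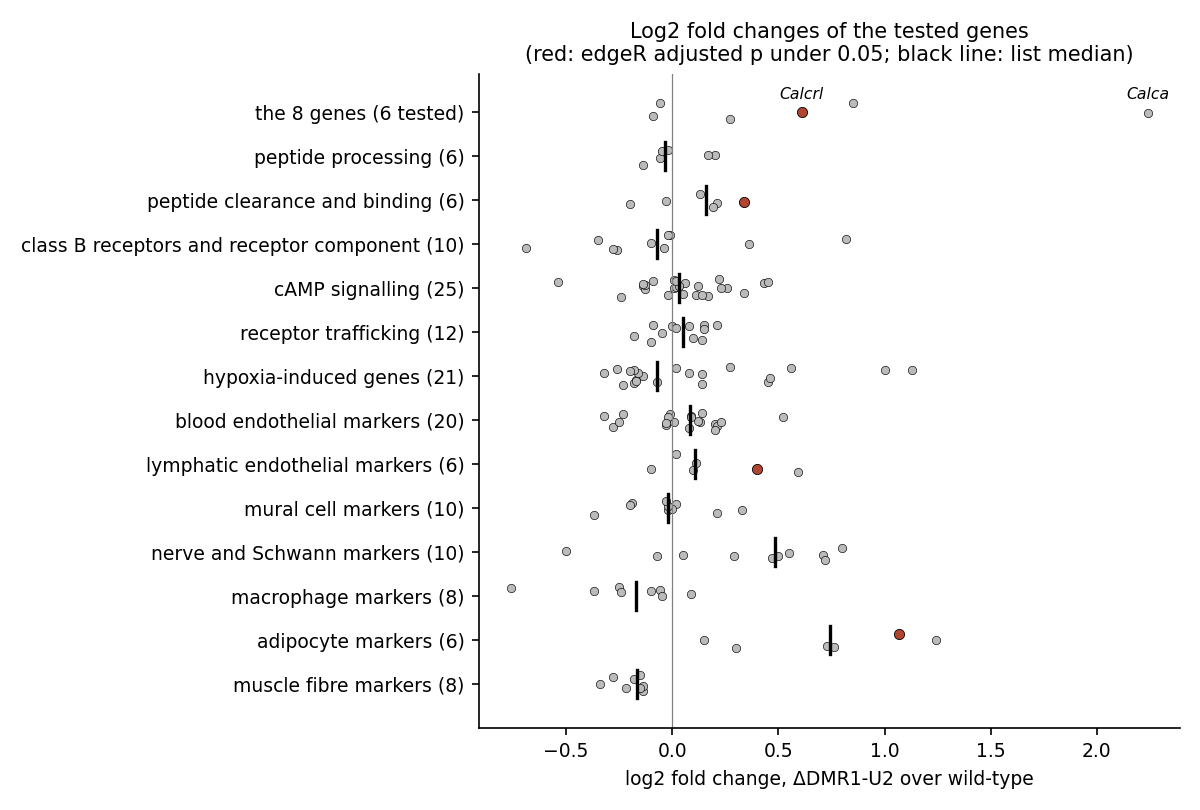
Log2 fold change of KO over WT (horizontal axis) for each tested gene of the receptor family and of the pathway and marker lists, 1 point per gene, red where the edgeR adjusted p is under 0.05, with a black line at each list's median. Calcrl, Lnpep, Reln and Cidea are the red points, and the medians of the pathway lists lie between -0.07 and 0.16.

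The genes whose log2 CPM followed Calcrl most closely over the 8 libraries, by Pearson correlation, were Emp2, Slc26a4, D730040F13Rik, Stom, Igf2bp2, Kif5a, Ceacam1, Cnksr3, Lrrtm2 and Ica1l, with r from 0.966 to 0.984. Calcrl falls into separate clusters by group, so this list mostly picks genes with the same group difference, and all 10 were higher in KO. Emp2, a membrane protein, was at 55.5 ± 3.92 CPM in KO and 39.4 ± 0.996 CPM in WT, and Stom, stomatin, a protein of membrane rafts, at 63.6 ± 5.98 CPM in KO and 44.1 ± 2.15 CPM in WT (SD, n = 4 each). With group means subtracted, the 10 closest were Nlrc4, Lrrtm2, Fcer1a, AU021092, Cr2, 2310002D06Rik, 4933413J09Rik, 4930473A02Rik, Dgkg and Igf2bp2, with r from 0.933 to 0.967, and only Lrrtm2 and Igf2bp2 were on both lists. None of the 20 blood endothelial markers was on either. Within groups, r with Calcrl was 0.62 for Ramp2, 0.50 for Ramp3, 0.34 for Calca, 0.05 for Adm and -0.18 for Ramp1 over 8 libraries, and the median was 0.46 for the adipocyte markers, the highest of the lists, 0.21 for the blood endothelial markers and -0.01 for all tested genes. These values are descriptions, since within a library all genes share its depth and cell makeup.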

How the data were processed

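Ribosomal RNA was depleted from total RNA and paired-end libraries were sequenced, per the labels' protocols. The submitters' processing notes name build mm10 and list DESeq2 1.4.5, HTSeq 0.5.4p3, TopHat2 2.0.9, Bowtie2 2.1.0 and FastQC 0.10.1. Settings, annotation and the strand rule of counting are not stated there. Reads of unspliced RNA may enter such libraries.

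The authors deposited 1 table that gives, per the file headers, a raw count per gene and library. It also holds the authors' mean counts divided by size factors (a signal), their WT to KO fold as a ratio, its log2, and the p-value of their test, raw and adjusted. Of these, the fold of Calcrl is quoted. The number of count columns that matched no sample was 0.

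The quasi-likelihood test of edgeR 4.0.16 (R 4.3.3) was fitted to the deposited counts across all genes, with TMM scaling, over 15241 genes past filterByExpr at a minimum count of 10. Adjustment was by Benjamini-Hochberg, and a gene was called at an adjusted p under 0.05. Log2 CPM used a prior count of 2. Lengths and positions are from GENCODE vM21 on the same assembly. The test was checked on simulated data. Alternatives were DESeq2 1.42.0, other scalings, no filter, libraries left out and replicate blocks.

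The 8 genes and all lists were chosen with earlier results of these data known. Of each list the text names up to 4 called genes or, with none called, the 2 most abundant (1 such gene is not reported here), and other list genes were picked after their values were seen. The 10 genes closest to Calcrl by correlation and its neighbours are named as well.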

Additional observations from a re-analysis of the deposited data

Results flagged for a closer look

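Within a group of 4 libraries, the highest or lowest value was marked where its gap to the nearest other library, as a share of the group's range, exceeded the critical value of Dixon's test. Of 52 groups of values checked 5 were marked, and chance marks about 1 in 20 groups.

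Calca was at 7.47 CPM in KO library 1B, far above the other 3 KO libraries. The summed adipocyte markers were at 197 CPM in the same library. Calcb was at 0.00 CPM in WT library 3, against 1 or 2 counts in the other WT libraries. The summed lymphatic endothelial markers were at 185 CPM in WT library 2, and the summed macrophage markers at 379 CPM in WT library 3.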

How the results depend on the processing

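The log2 fold change of Calcrl was 0.59 to 0.66 over the 15 alternatives, a description only, since this contrast chose the gene. Of all tested genes 172 were called; leaving out 1 library gave 7 to 631 calls, with 631 without KO 2, 7 without KO 3 or WT 1A, 10 without WT 2, 20 without WT 1B and 22 without WT 3. The count was 16 without KO 1A and 1B, and 930 in DESeq2. A replicate block by name gave 13 calls and a replicate block by number gave 9, with Calcrl at 0.61 in both; same-named libraries had correlations of -0.22 to -0.08 in their deviations from the group means, so the names were not taken to pair the animals. The 8 genes were picked from this contrast, so their number past the threshold (1, 1 to 2 with 1 library left out, 2 in DESeq2) supports nothing. Of the 80 tested pathway genes 1 was called, and 0 to 6 with 1 library left out. Without KO 2 it was 6 of 82, where 631 of 15389 genes were called. DESeq2 called 6 pathway genes, where 6.15% of all genes were called. The number was 0 without KO 1A and 1B and with either replicate block. The cause of these shifts was not tested. Lnpep, Reln and Cidea kept their direction in the 15 alternatives and their calls in 5, 5 and 7 of them. Ramp1 lay between -0.23 and 0.06. Depth limits Ramp3, Calca, Adm2 and Calcb, which had at most 29, 140, 2 and 2 counts in a library.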
